A study of Sus scrofa with 8 samples.

Results

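The let-7 and miR-98 family was followed across microRNA (miRNA) arrays of the pig corpus luteum, the ovarian gland that secretes progesterone. Its members were taken by name, as every array target whose miRNA name begins with let-7 or is miR-98. They came to 17 of the 686 targets on the array. The family itself was chosen with earlier results of these data known. Of the 17, 9 were guide strands, the strand that is usually kept in the silencing complex, and 8 were passenger strands, named with the suffix 3p. By the species prefix of their names, 9 were porcine, 4 human and 4 mouse sequences. Luteal tissue came from crossbred gilts 6 to 8 months old of a single herd, and the tissue was whole, so that fewer cells of a type and less miRNA per cell cannot be told apart. The cyclic group (4 samples) was not inseminated and was sampled on day 14 of the estrous cycle. The pregnant group (4 samples) was inseminated 12 and 24 hours after its second estrus was detected, and was sampled on day 14 of pregnancy. The labels call each sample a biological replicate, and each was hybridised to its own 1-colour array.

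The let-7 family is among the oldest known groups of miRNAs. Its guide strands share a seed, the stretch near the 5′ end that pairs with target messages, and they repress growth-promoting genes such as RAS genes, MYC and HMGA2 in mammals. The RNA-binding protein LIN28 blocks the maturation of let-7 precursors in undifferentiated cells, and high let-7 is a mark of differentiated tissue. miR-98 carries the let-7 seed under another name. The mature sequences of the family resemble each other closely, and how far the probe of a given member also reads its relatives was not tested.

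Several loci give rise to the family, and a probe for a mature miRNA cannot tell loci with the same product apart. In the RefSeq annotation of the pig assembly Sscrofa11.1, 10 let-7 and miR-98 genes were found by symbol. MIRLET7A-2, MIRLET7F-2 and MIRLET7D follow each other in the order of miRNA genes along their chromosome, and MIR98 lies next to MIRLET7F-1. MIRLET7C lies next to MIR99A, MIRLET7E lies between MIR125A and MIR99B, and MIRLET7A-1 lies between MIR125B-1 and MIR100. MIRLET7G and MIRLET7I have no family member as their nearest miRNA gene.

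The arrays varied in strength before scaling and did not group fully by label. Between 22.6% and 28.7% of spots per array were well above background, and the 75th percentile of intensity, by which each array was scaled, ran from 189 to 316. Markers of the gonad were present, in that both strands of miR-202 were detected, and 0 of 7 muscle and liver targets were detected on any array. Of the 3 slides, slide 1 carried pregnant replicates 1 and 2 only, slide 2 carried cyclic replicates 1 and 2 only, and slide 3 carried the other 2 replicates of each group. The scan day of slide 1 differed from the day shared by slides 2 and 3 (scan day 2). Cyclic replicate 1 stood apart from its group. Over the 9 guide strands its root mean square (RMS) log2 distance averaged 0.606 to the other cyclic arrays and 0.217 to the pregnant arrays, and over all 212 tested targets it averaged 0.650 and 0.413. The other 3 cyclic arrays lay closer to their own group, with 0.330 to 0.465 over the guide strands against 0.483 to 0.662 to the pregnant arrays. Cyclic replicate 1 thus went against its label over the family, and whether that label is right was not tested. Tests that rest on it are therefore given with and without it, while pairs of members and likeness are given with it only. As it was singled out by its values over the family and over all tested targets, results without it are descriptive.

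**Figure D1:**
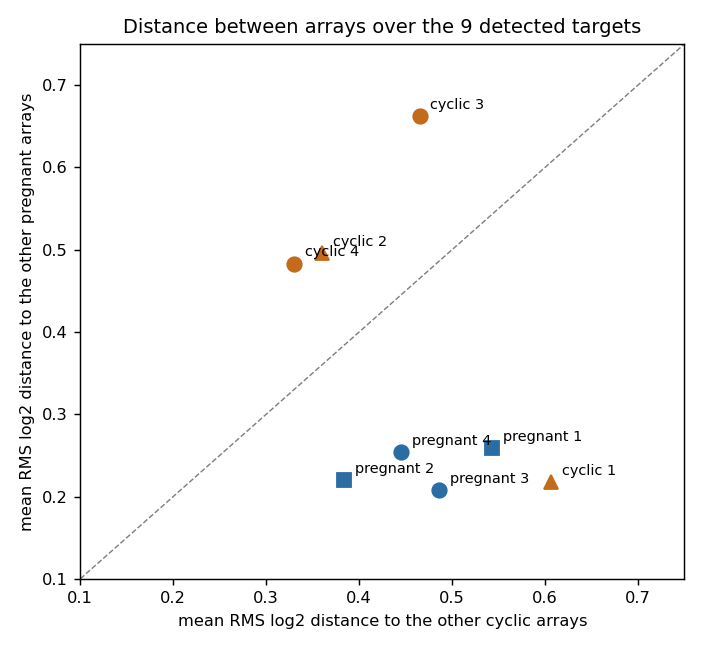
Mean RMS log2 distance of each array to the other cyclic arrays (x axis) and to the other pregnant arrays (y axis) over the 9 guide strands; orange marks cyclic and blue pregnant arrays, squares slide 1, triangles slide 2 and circles slide 3, and the dashed line marks equal distances. Cyclic replicate 1, at 0.606 and 0.217, lies on the side of the pregnant arrays.

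The guide strands were read well above background and the passenger strands were not. All 9 guide strands were detected on all 8 arrays, and 1387 of their 1388 usable spots were well above background. On the probe with the highest mean signal of each guide strand, intensities before scaling lay between 44.5 and 3507 over all arrays. Over all probes, 0 spots were saturated. Of the 1246 usable spots for passenger strands, 5 were well above background (0.401%), 3 of them for hsa-let-7b-3p and 2 for mmu-let-7g-3p. None of the 8 passenger strands reached detection on any of the 8 arrays, and their intensities on the probe with the highest mean lay between −1.33 and 8.43. The remaining ones were hsa-let-7e-3p, hsa-let-7f-1-3p, mmu-let-7a-1-3p, mmu-let-7c-1-3p, mmu-let-7i-3p and ssc-let-7d-3p. The passenger strands were not tested, and the values that follow concern the 9 guide strands. These values are log2 of the intensity divided by the array's 75th percentile, so that 0 marks a signal equal to that percentile. The probe of each member has its own response, and levels are compared between arrays and not between members.

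The first comparison asked which members differed between glands on day 14 of pregnancy and on day 14 of the cycle. A single member, hsa-let-7b-5p, was higher in pregnancy, 1.67-fold, and let-7c, let-7e and let-7d-5p had the next largest differences without passing the test. let-7f, let-7g, miR-98 and let-7i lay within 0.11 of equality on the log2 scale. Differences are pregnant minus cyclic, tested with limma over all 212 targets detected on at least 4 arrays, with Benjamini-Hochberg adjustment.

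let-7b, a member whose human gene shares a locus with a let-7a copy, was measured with the human sequence hsa-let-7b-5p. Its level was 2.61, 1.73, 1.63 and 1.79 on cyclic replicates 1 to 4 and 2.86, 2.48, 2.74 and 2.65 on pregnant replicates 1 to 4. All pregnant arrays lay above cyclic replicates 2, 3 and 4, while cyclic replicate 1 lay within the pregnant range, so the groups overlapped. The means were 1.94 ± 0.45 in the cycle and 2.68 ± 0.16 in pregnancy (SD, n = 4), and the difference was 0.74 ± 0.20 (SE, limma, adjusted p = 0.0333). Before scaling, its intensity was 1394, 989, 599 and 1091 on the cyclic arrays and 1995, 1321, 2015 and 1186 on the pregnant arrays. The call was lost in 16 of 26 other settings and held in 10, and it held in 1 of the 8 fits that left out an array. Its difference ran from 0.59 to 1.04 over the 26 settings and was positive in all of them. Some of these settings, such as the filter and the variance trend, cannot alter the difference.

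ssc-let-7c, whose gene neighbours miR-99a, had the next largest difference. It read 1.79, 1.05, 0.97 and 1.04 on cyclic replicates 1 to 4 and 1.95, 1.57, 1.83 and 1.65 on pregnant replicates 1 to 4. Cyclic replicate 1 again lay among the pregnant arrays and the other cyclic arrays lay together below them. Its difference was 0.54 ± 0.18 and did not pass (limma, adjusted p = 0.0834). ssc-let-7e, which is processed from the same primary transcript as miR-99b and miR-125a in mammals, read 0.18, −0.51, −0.51 and −0.26 in the cycle and 0.26, 0.02, 0.25 and 0.10 in pregnancy. The difference of let-7e was 0.43 ± 0.16 (limma, adjusted p = 0.104), with the same array overlapping. let-7d-5p, from the locus of let-7a and let-7f copies, read 0.65, 0.21, −0.34 and 0.01 in the cycle and 0.72, 0.41, 0.68 and 0.31 in pregnancy. Its difference was 0.39 ± 0.20 (limma, adjusted p = 0.180).

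ssc-let-7a, whose mature sequence is that of the worm miRNA which gave the family its name, had a smaller difference. Its level was 3.61, 3.18, 2.86 and 3.06 on the cyclic arrays and 3.67, 3.32, 3.49 and 3.31 on the pregnant arrays. The 3 lowest arrays were cyclic replicates 2, 3 and 4, and the difference of 0.27 ± 0.16 did not pass (limma, adjusted p = 0.273). It was 0.05 with quantile normalization, 0.11 with the deposited table and 0.17 without cyclic replicate 3. The remaining members had ranges that overlapped on more arrays. ssc-let-7f lay between 2.63 and 3.39 in the cycle and between 2.94 and 3.30 in pregnancy, with a difference of 0.10 ± 0.16. let-7g, encoded apart from the other members, lay between 1.13 and 1.76 in the cycle and between 1.40 and 1.72 in pregnancy (0.04 ± 0.15). miR-98, the X-linked neighbour of a let-7f gene, lay between −2.12 and −1.37 in the cycle and between −1.91 and −1.50 in pregnancy (0.04 ± 0.19). let-7i, also encoded on its own, lay between −0.29 and 0.01 in the cycle and between −0.48 and 0.09 in pregnancy (−0.02 ± 0.15). For these 4 the sign turned in at least 1 of the other settings, including quantile normalization for let-7f and let-7i and the absence of scaling for let-7g and miR-98.

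**Figure D2:**
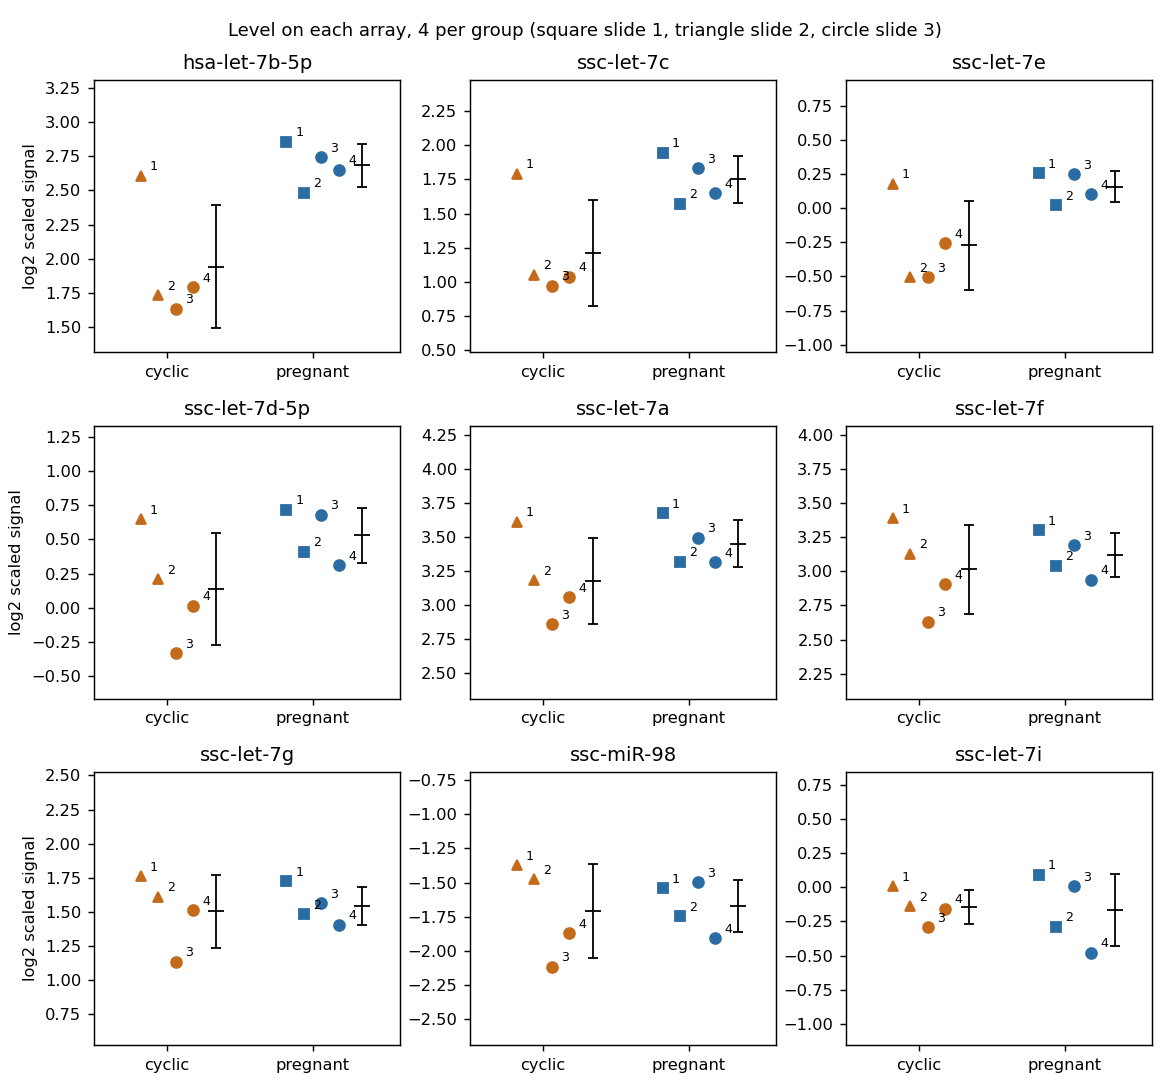
Level of each guide strand on each array (y axis, log2 scaled signal, 2 units high in every panel) in the cyclic and pregnant groups; numbers give the replicate, squares slide 1, triangles slide 2 and circles slide 3, and the black bar gives the mean with SD (n = 4). Cyclic replicate 1 lies at the pregnant level for hsa-let-7b-5p (2.61) and let-7c (1.79), while let-7g, miR-98 and let-7i show groups that overlap throughout.

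As a group, 1 of the 9 tested members rose, 0 fell and 8 did not pass. Of all tested targets, 5.19% were called higher in pregnancy (11.3% in either direction), so that 1 of 9 amounts to no more than a single call. Differences were positive in 8 of the 9 members, where 50.5% of all tested targets were positive. The median difference was 0.27 for the members and 0.00 for all tested targets. Because the family was chosen with earlier results of these data known, no p-value is given for this count or median. By unadjusted p under 0.05, 3 members were higher (let-7b-5p, let-7c and let-7e), against 18.9% of all tested targets higher and 34.4% in either direction. In 0 of the 9 members did all pregnant arrays lie apart from all cyclic arrays, which was so in 17.0% of tested targets. Leaving out cyclic replicate 3 gave 5 positive members and a median of 0.17, leaving out pregnant replicate 1 gave 6 positive members and a median of 0.20, and leaving out cyclic replicate 1 gave 9 positive members and a median of 0.42. The members' median depended on the normalization too. It stood 0.04 above the median of all tested targets with quantile normalization and 0.06 above it with the authors' deposited table, compared with 0.27 here.

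Leaving out cyclic replicate 1 changed the number of calls. Without it 5 of the 9 members were higher in pregnancy and 0 lower, in a fit that called 19.3% of all tested targets higher. The 5 were let-7b-5p (0.97 ± 0.12, adjusted p = 8.79e-05), let-7c (0.73 ± 0.12, adjusted p = 0.000832), let-7e (0.58 ± 0.12, adjusted p = 0.00422), let-7d-5p (0.57 ± 0.15, adjusted p = 0.0141) and let-7a (0.42 ± 0.13, adjusted p = 0.0238), all from limma. Their pregnant arrays then all lay above the 3 cyclic arrays, as they did in 22.6% of tested targets. The array left out had been singled out by its values over these same members. Its removal therefore favours separation of the groups, and these calls are no independent evidence of a difference. let-7f (0.23 ± 0.14), let-7g (0.12 ± 0.13), miR-98 (0.15 ± 0.18) and let-7i (0.03 ± 0.15) did not pass there either. In the other 7 fits without an array, 0 members passed.

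Slide 3 held both groups and did not hold cyclic replicate 1. With its 2 arrays per group alone, hsa-let-7b-5p differed by 0.99 ± 0.15 (limma, adjusted p = 0.0362) and was the 1 member called, where 0.943% of all tested targets were called higher. Slides 1 and 2 each held a single group, so a fit with slide as a block gave the same difference (0.99 ± 0.27, adjusted p = 0.0404), in a fit that called 4.25% of targets higher. Within slide 3 let-7c differed by 0.74 ± 0.15, let-7d-5p by 0.66 ± 0.21, let-7e by 0.56 ± 0.17 and let-7a by 0.45 ± 0.17, with adjusted p from 0.0627 to 0.159. With scan day as a block, hsa-let-7b-5p differed by 0.76 and did not pass (limma, adjusted p = 0.124). Summed leukocyte signal ran along with this split of the cyclic arrays. The summed signal of the 7 detected targets of 13 on a leukocyte list was 0.851 on cyclic replicate 1. It was 2.02 to 5.11 on the other cyclic arrays and 0.904 to 1.16 on the pregnant arrays, with ssc-miR-155-5p called lower in pregnancy. hsa-miR-223-3p read −3.16 on cyclic replicate 1, −0.33, −0.02 and 1.74 on the other cyclic arrays and −2.84 to −2.65 on the pregnant arrays. Its difference was −2.29 (limma, adjusted p = 0.0768). ssc-miR-142-5p differed by −0.65 and bta-miR-155, another miR-155 entry, by −0.34 (limma, adjusted p = 0.349 and 0.269). Near 0 were ssc-miR-146a-5p (−0.01), ssc-miR-150 (0.01) and mmu-miR-342-3p (−0.10). Fibroblast miRNAs (5 of 6 detected, 0 called) summed to 3.57 on cyclic replicate 1, 4.62 to 8.49 on the other cyclic arrays and 3.85 to 4.31 on the pregnant arrays. Cyclic replicate 1 also had the highest cyclic sum of endothelial miRNAs (7.95, pregnant 7.55 to 9.44) and of erythroid miRNAs (7.22, pregnant 1.25 to 6.19). Its smooth muscle and pericyte sum was the lowest of the cyclic arrays (1.25, pregnant 1.28 to 1.65). Its epithelial sum of 0.137 lay between the cyclic extremes of 0.0913 and 0.175. The 6 leukocyte targets detected on 0 arrays were ssc-miR-142-3p, ssc-miR-146a-3p, ssc-miR-155-3p, ssc-miR-342, mmu-miR-223-5p and mmu-miR-342-5p, while mmu-miR-342-3p was detected on all 8. The part of these cells in the let-7 differences was not tested.

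**Figure D3:**
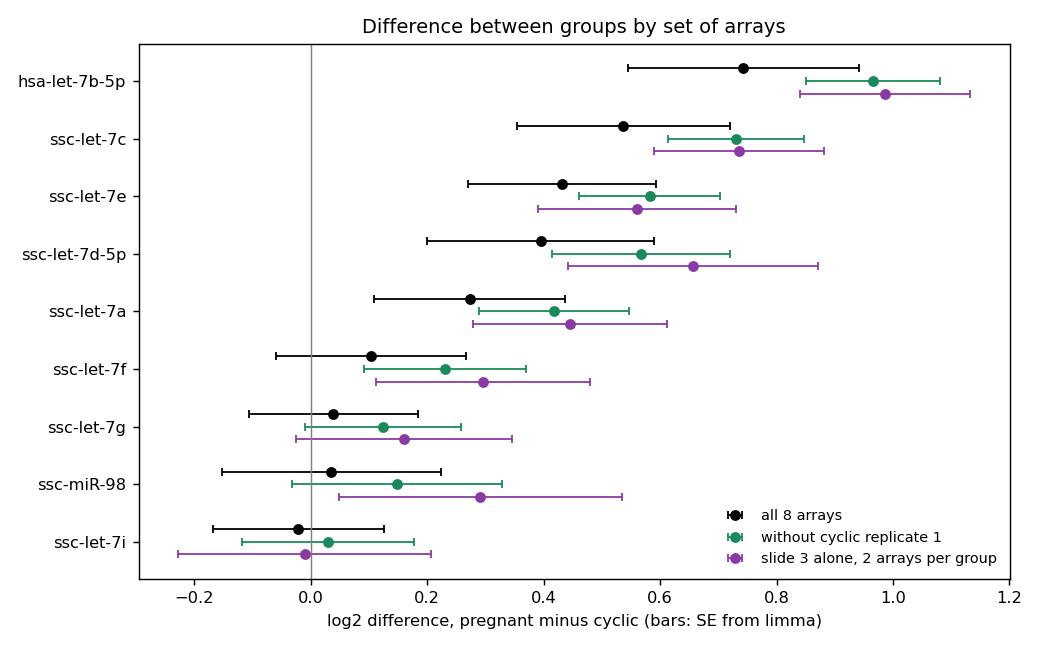
Log2 difference, pregnant minus cyclic (x axis), of the 9 guide strands with all 8 arrays (black), without cyclic replicate 1 (green) and with slide 3 alone (purple); bars are the limma SE. hsa-let-7b-5p stands highest in each of the 3 sets (0.74, 0.97 and 0.99), and let-7i stays near 0.

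The second comparison asked whether the members differed equally. The log2 ratio of a member to let-7a on the same array does not depend on the factor by which that array is scaled, so it was compared between the groups for the other 8 members by a 2-sided exact permutation test over the 4 and 4 arrays, whose smallest possible p is 0.0286. let-7b-5p and let-7c lay higher relative to let-7a on every pregnant array than on any cyclic array, and let-7f and miR-98 lay lower. Each of these 4 reached that smallest p, and adjusted over the 8 ratios none passed (Benjamini-Hochberg, adjusted p = 0.0571 for each). With only 4 of 8 ratios at the smallest possible p, none can pass this adjustment. More ratios at that limit would have been needed, and the next one, that of let-7g, overlapped between the groups (exact permutation test, p = 0.0571). Among 157 other targets detected on all arrays, 5.73% had ratios to let-7a that did not overlap between the groups.

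The ratio of let-7b-5p to let-7a was −1.002, −1.45, −1.23 and −1.27 on cyclic replicates 1 to 4 and −0.81, −0.83, −0.75 and −0.66 on pregnant replicates 1 to 4. Here cyclic replicate 1 was the highest of its group but stayed below every pregnant array. The means were −1.24 ± 0.18 and −0.77 ± 0.08 (SD, n = 4), so that let-7b-5p stood 0.47 higher against let-7a in pregnancy. This value ran from 0.40 to 0.55 over 20 other settings, but with quantile normalization and the deposited table the exact p rose to 0.0857 and 0.0571. The exact p was also 0.0571 whichever pregnant array was left out. Within slide 3 let-7b-5p stood 0.54 higher against let-7a and within scan day 2 it stood 0.53 higher, where so few arrays could not pass the exact test. For let-7c the mean ratio was −1.96 ± 0.14 in the cycle and −1.70 ± 0.04 in pregnancy, with the cyclic arrays between −2.13 and −1.82 and the pregnant arrays between −1.74 and −1.66. For let-7f it was −0.16 ± 0.08 in the cycle and −0.33 ± 0.05 in pregnancy, with cyclic arrays between −0.23 and −0.05 and pregnant arrays between −0.37 and −0.28. miR-98 stood at −4.89 ± 0.15 in the cycle and −5.12 ± 0.11 in pregnancy, and its closest arrays across the groups were −4.98 and −4.99. For miR-98 the exact p rose to 0.143 with normexp background correction and to 0.0571 with the total gene signal. let-7g differed by −0.23 (exact p = 0.0571) and let-7i by −0.29 (exact p = 0.0857), and let-7e and let-7d-5p by 0.16 and 0.12 (exact p = 0.114 each). Adjusted over the 8 ratios these came to 0.0914 for let-7g and 0.114 for the other 3. Most of these ratios moved with quantile normalization, to −0.02 for miR-98, −0.04 for let-7g, −0.10 for let-7f, 0.44 for let-7c, 0.38 for let-7d-5p and 0.46 for let-7e, none with an exact p under 0.11. With the deposited table miR-98 was at −0.09, let-7g at −0.13, let-7i at −0.05, let-7d-5p at 0.37 and let-7e at 0.42. Without cyclic replicate 1, 5 ratios passed (let-7b-5p, let-7c, let-7f, let-7g and let-7i, exact permutation test, adjusted p = 0.0457 each), with let-7b-5p at 0.55 and let-7i at −0.39. All 5 were at the smallest possible exact p of 0.0286, and 5 at that limit pass the adjustment where 4 do not.

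**Figure D4:**
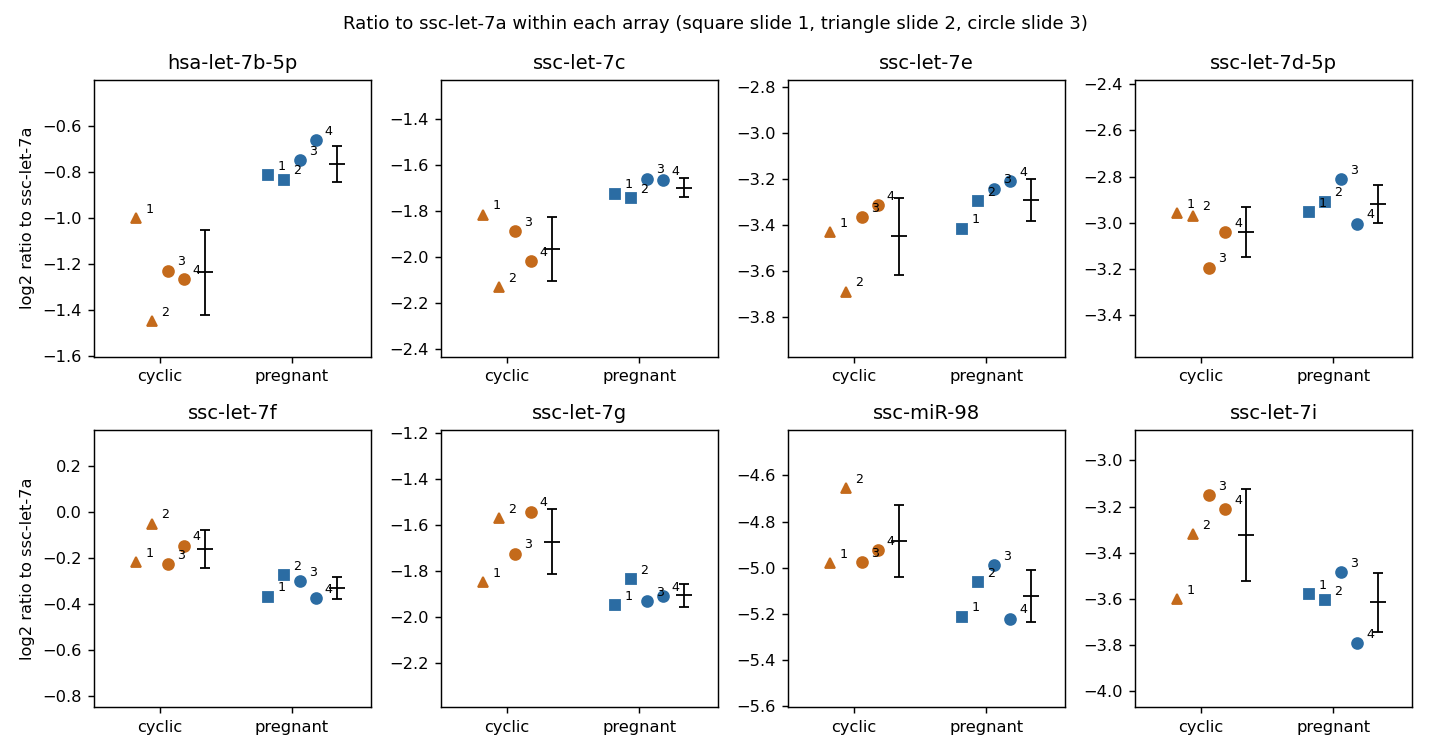
Log2 ratio of 8 guide strands to ssc-let-7a on the same array (y axis, 1.2 units high in every panel) in the cyclic and pregnant groups; numbers give the replicate, squares slide 1, triangles slide 2 and circles slide 3, and the black bar gives the mean with SD (n = 4). The groups do not overlap for hsa-let-7b-5p, let-7c, let-7f and miR-98.

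The members were also compared pair by pair. Of the 36 pairs among the 9 guide strands, 21 had ratios that did not overlap between the groups, where 21.3% of 12246 pairs of other targets detected on all arrays did. The pairs share members and are not independent. let-7b-5p was higher in pregnancy against each of the other 8 members, from 0.21 against let-7c to 0.76 against let-7i. Among let-7f, let-7g, let-7i and miR-98, none of the 6 pairs separated the groups. The ratio of let-7f to let-7g was the steadiest of all 36, with an SD of 0.0768 over the 8 arrays, followed by let-7f to miR-98 with 0.0806.

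Each guide strand was read by a pair of probes, with 20 spots per array in all, and the members varied in how close the 2 probes came. For hsa-let-7b-5p the used probe gave a difference of 0.74 and the other 0.75. The probes of let-7a (0.27 and 0.26), let-7e (0.43 and 0.44), let-7g (0.04 and 0.03) and miR-98 (0.04 and 0.04) differed by less than 0.02. let-7c gave 0.54 with the used probe and 0.38 with the other, and let-7f gave 0.10 and −0.00256. let-7d-5p (0.39 and 0.44) and let-7i (−0.02 and −0.07) lay between these. Each of the 18 probes was detected on all 8 arrays, and replicate spots of 1 probe had a median coefficient of variation from 2.04% to 7.31%.

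Targets with a pattern like that of let-7b-5p and let-7a were sought by the SD of their log2 ratio over the 8 arrays, among 165 targets detected on all arrays. This SD includes the difference between the groups, so a close target has a similar difference by selection. Its calls are thus no separate evidence. Closest to let-7b-5p was let-7c (SD 0.123). The 3 closest targets outside the family were miR-423-5p (0.148), which was called higher in pregnancy by 0.76 (limma, adjusted p = 0.0300), mmu-miR-652-3p (0.250) and hsa-miR-181a-5p (0.251), called higher by 0.55 (limma, adjusted p = 0.0300). let-7a ranked 12th for likeness to let-7b-5p (0.283) and let-7i ranked 64th (0.482). Closest to let-7a were miR-185 (0.0745), miR-103 (0.0893) and miR-151-5p (0.111) outside the family, and let-7f (0.109) and let-7d-5p (0.110) within it, while let-7b-5p was the least like it of the 8 other members (0.283).

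Genomic companions of let-7 genes, the miR-99, miR-100 and miR-125 miRNAs, did not share a direction. Of 9 such targets 8 were tested, of which 0 rose, hsa-miR-125a-3p fell and 7 did not pass, where 11.3% of all tested targets were called in either direction. By unadjusted p under 0.05, 6 of the 8 differed, against 34.4% of all tested targets. Their median difference was −0.10. At the let-7e locus the guide strands had differences near that of let-7e itself: 0.45 ± 0.15 for miR-99b, 0.39 ± 0.17 for ssc-miR-125a and 0.39 ± 0.15 for hsa-miR-125a-5p, a separate entry for the same strand (limma, adjusted p from 0.0742 to 0.142). miR-99b read −2.55 to −2.84 in the cycle and −2.06 to −2.41 in pregnancy, without overlap. Passenger strands of that locus had differences of the opposite sign. hsa-miR-125a-3p read −3.42, −3.22, −1.64 and −2.71 in the cycle and −3.83, −3.64, −4.24 and −3.93 in pregnancy (−1.16 ± 0.34, limma, adjusted p = 0.0463), and mmu-miR-99b-3p, detected on 7 arrays, differed by −0.49 ± 0.21 (adjusted p = 0.135). The call of hsa-miR-125a-3p was lost with normexp background correction (−0.36, adjusted p = 0.293), quantile normalization (adjusted p = 0.0639), the authors' deposited table (adjusted p = 0.0620), slide 3 alone (−1.91, adjusted p = 0.0634) and scan day as a block (adjusted p = 0.0971), all from limma. miR-99b passed with quantile normalization (0.53, adjusted p = 0.0420), the deposited table (0.51, adjusted p = 0.0432) and the percentile over all probes (0.75, adjusted p = 0.0112), and was 0.20 with normexp (adjusted p = 0.496).

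At the other shared loci the companions did not share the positive difference of the let-7 member. miR-99a, next to let-7c, differed by −0.17 ± 0.11, where let-7c differed by 0.54. miR-100 differed by −0.37 ± 0.17 and miR-125b by −0.03 ± 0.15, where let-7a, which other loci also produce, differed by 0.27. The value of miR-125b lay within its SE of 0, and whether other loci add to its signal was not tested. None of these 3 passed (limma, adjusted p = 0.338, 0.142 and 0.937). Scaling to the 75th percentile over all probes, which raised the median of all tested targets by 0.30, took miR-99a to 0.13, miR-125b to 0.27 and miR-100 to −0.07, all below that shift, and miR-125b was 0.11 with scan day as a block. miR-99a was −0.04 with quantile normalization and −0.06 with the deposited table. Without cyclic replicate 1, hsa-miR-125a-3p passed (−1.39 ± 0.31, limma, adjusted p = 0.00592). There miR-99b (0.50 ± 0.16, adjusted p = 0.0267), hsa-miR-125a-5p (0.50 ± 0.13, adjusted p = 0.0134) and miR-100 (−0.49 ± 0.15, adjusted p = 0.0211) passed as well. That fit called 81 of the 212 tested targets in either direction, and 19.3% of all tested targets higher.

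**Figure D5:**
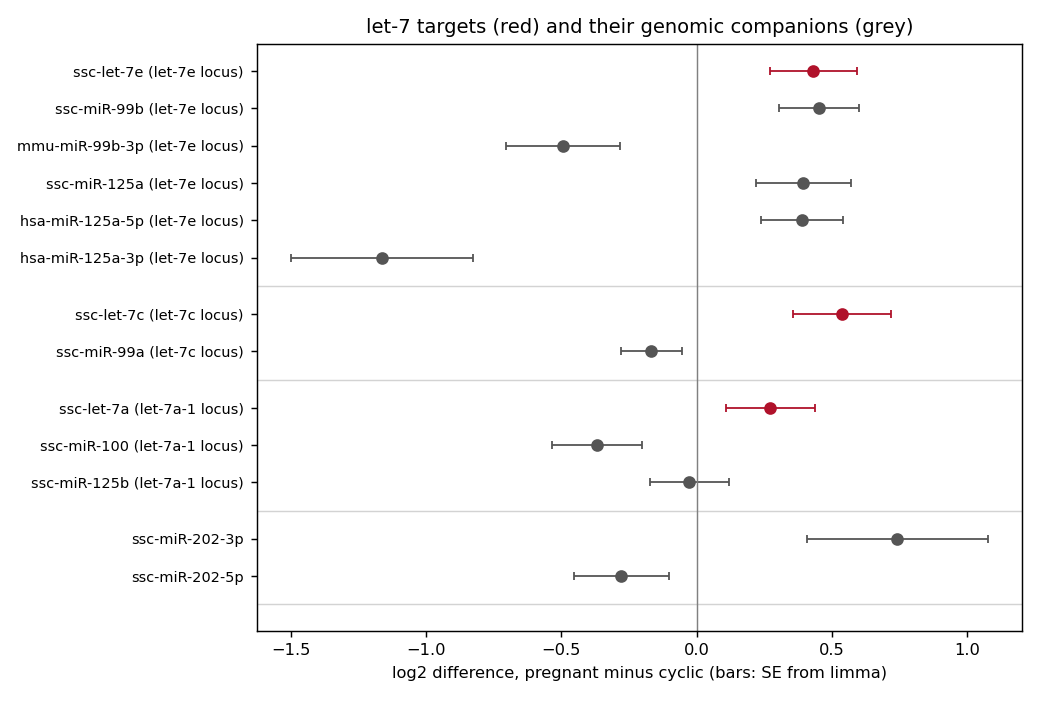
Log2 difference, pregnant minus cyclic (x axis), of let-7 targets (red) and of the miRNAs encoded beside them (grey), with miR-202 at the bottom; bars are the limma SE. At the let-7e locus the guide strands lie between 0.39 and 0.45 and the passenger strands below 0.

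miR-202-3p, a gonad-enriched miRNA whose human sequence shares most of the let-7 seed, showed the same split of the cyclic arrays. It read −1.06, −2.54, −2.53 and −2.49 on cyclic replicates 1 to 4 and −1.51, −0.78, −1.62 and −1.73 on pregnant replicates 1 to 4. Cyclic replicate 1 lay within the pregnant range and the other cyclic arrays lay below it. The difference was 0.74 ± 0.33 (limma, adjusted p = 0.142) with all arrays and 1.11 ± 0.21 without cyclic replicate 1 (adjusted p = 0.00247). Its other strand, miR-202-5p, was detected on 2 cyclic and 3 pregnant arrays and differed by −0.28 ± 0.17 (adjusted p = 0.292), or by 0.022 with the percentile over all probes.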

How the data were processed

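Total RNA (100 ng per sample, integrity number above 8, per the labels) was labelled with Cy3. Each deposited scanner file gives the intensity of every spot, background-subtracted by Agilent Feature Extraction 10.7.3.1 per the file headers (10.7 per the submitters' processing notes). The authors' deposited value table, an alternative here, proved to hold log2 values centred on each spot, in the same direction as the scanner values (slopes from 0.926 to 0.993 against them, r from 0.952 to 0.981). Its scaling between arrays stays unknown, and its column medians ran from −0.000302 to 0.0318. In 2 of its deposited columns, taken as a score, 3 cells above 100 were read as missing.

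Control spots (715 per array) and outlier spots (384 to 453 per array) were left out. Spots were averaged per probe and divided by the array's 75th percentile over the 166 targets detected on all arrays. Detection of a probe required that the share of its spots well above background be 0.5 or more. Signals were floored at 0.0346 (log2 −4.85), and the probe with the highest mean represented each target. limma 3.58.1 (lmFit, eBayes with trend, 2-sided; R 4.3.3) tested targets detected on at least 4 arrays, at an adjusted p of 0.05, and was tested on simulated data. Ratios were tested by exact permutation. Precision is limited by having 4 arrays per group, and the p-values reflect variation among these samples only. Python 3.11.15 with matplotlib 3.10.9 drew the figures.

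The text names every detected member, the tested genomic companions, miR-202 as a miRNA with a similar seed, and the 3 targets most like let-7b-5p and let-7a. Members, lists and tests were chosen with earlier results of these data known. The alternatives covered background correction (normexp on median spot and background signals), scaling, source of values, filter, floor, probe summary, slide, scan day, replicate block, variance trend and each array left out. Slide as a block without cyclic replicate 1 was chosen after seeing the data. Mature sequences were not used here.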

Additional observations from a re-analysis of the deposited data

Results flagged for a closer look

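In 3 of 54 groups of 4 values tested, a single array lay apart from the other 3 by Dixon's criterion, and each time it was cyclic replicate 1. Chance alone puts about 1 in 20 groups past this limit. The level of hsa-let-7b-5p there was 2.61, where the other cyclic arrays read 1.63 to 1.79. For let-7c it was 1.79, where the others read 0.97 to 1.05. For miR-202-3p it was −1.06, where the others read −2.54 to −2.49. In each case the value lay within the range of the pregnant arrays.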

How the results depend on the processing

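The count of all tested targets that passed, 24 here, was 11 with normexp background correction, 62 with the 75th percentile over all probes (55 higher, 7 lower), 9 without scaling, 12 with the total gene signal, 1 without a filter, 11 with the higher floor, 9 within slide 3 and 2 with scan day as a block or within scan day 2. It ran from 7 to 81 when arrays were left out in turn. The count of members that passed, 1 here, was 0 with quantile normalization, without scaling, with the authors' deposited table, with the total gene signal, without a filter, with the higher floor, with the mean of all probes and with scan day as a block or alone. It was 4 with the 75th percentile over all probes, which also raised the members' median difference to 0.57, and from 0 to 5 without 1 array, the 5 being without cyclic replicate 1. With slide as a block and without cyclic replicate 1, 47 targets passed (17 higher, 30 lower), 4 of them members. With the replicate block 2 members passed, let-7b-5p and let-7c. No pairing by number was apparent, as same-numbered arrays deviated together with r of 0.104, 0.0975, −0.177 and 0.160 over the tested targets. Not every array correlated best with its own number. Such weak correlations cannot exclude a pairing. The count of ratios that passed, 0 here, ran from 0 to 5 without 1 array; slide as a random block was not run for the ratios, and with slide, scan day or replicate as a block the exact test could not reach 0.05. Signs turned for let-7f (−0.050 with quantile normalization, −0.037 with the deposited table, −0.024 to 0.23 without 1 array), let-7g (−0.0034 without scaling, −0.025 with the deposited table, −0.021 with scan day as a block or alone, −0.084 to 0.12 without 1 array), let-7i (0.064 with quantile normalization, 0.28 with the percentile over all probes, 0.053 with the deposited table, −0.11 to 0.082 without 1 array), miR-98 (−0.0067 without scaling, −0.10 to 0.15 without 1 array) and the ratio of let-7i to let-7a (0.012 with quantile normalization). The causes were not tested. Differences of let-7b-5p, let-7c, let-7e, let-7d-5p and let-7a were positive in all 26 settings. The filter, the higher floor, the variance trend and the replicate block left these differences unchanged, so the settings are not independent checks of the sign.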
